A study of Mus musculus with 4 samples.

Results

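RNA helicases of the DEAD and DEAH box family were followed in the small intestine of wild-type and CFLARs Tg mice. The members were chosen by name from the platform annotation, as every gene symbol made of Ddx or Dhx and a digit, except Ddx58, Dhx58, Ddx3x and Ddx3y. This gave 48 genes, 33 named Ddx and 15 named Dhx, of 19938 genes that had a probe set with a single symbol. A probe set is a group of short probes on the array that reports on the RNA of a gene. Where a gene had several, the one used was selected on its measured mean over the 4 arrays, the highest being kept, so the levels are given as a description. The difference between genotypes chose no single member, but the family was taken up with that difference known, so counts over the family are descriptions too.

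The study hybridised total RNA of C57BL/6 small intestine to 4 single-colour Affymetrix arrays. Wild-type mice gave 2 arrays, titled XX and XY, and mice with the genotype CFLARs Tg gave 2, titled XCFX and XCFY. CFLARs Tg stands for a transgene of the short form of cFLIP, the caspase-8 regulator encoded by Cflar. The series title places the mice in work on necroptosis of intestinal epithelial cells and ileitis in preterm mice. The promoter of the transgene, the age of the mice and the number of animals behind an array are not given by the sources used here, so the p-values measure only the spread between these samples, which may be technical in part.

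DEAD and DEAH box proteins bind RNA and use ATP to pull apart short duplexes or to strip proteins from RNA. They are named after the amino acids of a motif in the ATP-binding core. Members act at nearly every step of RNA life: transcription and trimming of ribosomal RNA in the nucleolus, assembly and release of the spliceosome, export, translation and decay of mRNA, and sensing of foreign RNA. The intestinal epithelium renews itself from dividing crypt cells, and dividing cells make many ribosomes.

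Ddx21, a helicase of ribosome assembly, rose most in CFLARs Tg, at 2.14-fold, and 5 of the other genes that rose also serve ribosome assembly. Of the 48 genes, 44 passed the filter on low values, a mean log2 value of at least 7.48. Among them 10 rose and 1 fell (limma, Benjamini-Hochberg adjusted p under 0.05), which is 22.7% and 2.27% of the members. Over all 13956 genes fitted, 8.44% rose and 10.9% fell. The genes that rose were Ddx21, Ddx39a, Dhx29, Ddx18, Ddx31, Ddx20, Dhx33, Ddx27, Ddx56 and Dhx9, and the gene that fell was Dhx34. Their adjusted p-values ran from 0.0179 to 0.0479. The median log2 difference of the 44 members was 0.14 (CFLARs Tg minus wild-type), against -0.01 over all genes fitted.

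The direction was shared by many members that did not pass the test. Both CFLARs Tg arrays lay above both wild-type arrays in 31 of 44 members (70.5%, against 32.0% of all genes fitted). Both lay below in 6 members (13.6%, against 37.6%). These 6 were Dhx34, Dhx40, Dhx57, Dhx35, Dhx36 and Ddx17. Before adjustment, 23 of 44 members had a p under 0.05 (52.3%, against 39.1% of all genes fitted). Within 0.1 log2 units of no difference lay 12 of 44 members (27.3%, against 37.2% of all genes fitted).

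The calls needed both wild-type arrays. With the XX array, wild-type replicate 1, left out, 0 members were called (limma, unadjusted p under 0.05 for 7; 0.244% of all genes rose), and the adjusted p of Ddx21 was 0.147. Without wild-type replicate 2, the XY array, 0 were called as well (unadjusted p under 0.05 for 8; 0.265% of all genes rose), with an adjusted p of 0.111 for Ddx21. Leaving out either CFLARs Tg array let more members pass, in both directions, as it did over all genes fitted. The median log2 difference of the members was then 0.162 without CFLARs Tg replicate 1 (all genes -0.012). Without CFLARs Tg replicate 2 it was 0.125 (all genes -0.016). When limma's treat required a change beyond 0.5 log2 units, 0 members were called (unadjusted p under 0.05 for 2; 0.38% of all genes rose). Without a filter on low values 5 rose, and the calls of Ddx20, Dhx33, Ddx27, Ddx56 and Dhx9 were lost (adjusted p from 0.0544 to 0.0570).

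**Figure D1:**
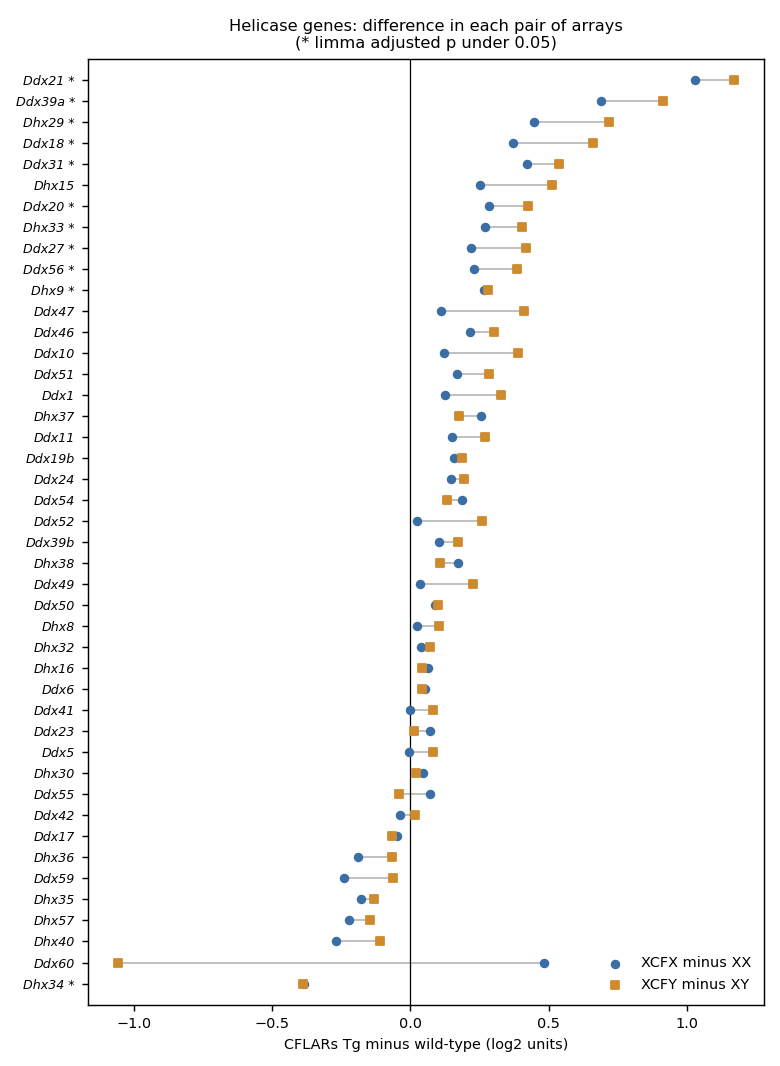
Difference between CFLARs Tg and wild-type (log2 units, horizontal axis) for the 44 fitted helicase genes, ordered by their mean difference. Circles show XCFX minus XX and squares XCFY minus XY, 1 array a side; Ddx21 is at the top and Ddx60 has its points farthest apart, at 0.48 and -1.06.

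The difference was read within each sex type, where every value is 1 array against 1. In 32 of 44 members both pairs of arrays gave a higher value in CFLARs Tg, against 35.8% of all genes fitted; in 7 both gave a lower value, and in 5 the signs were opposite. All 11 called genes had the larger absolute difference in the XY-type pair, as did 30 of 44 members. The share over all genes fitted was not counted. For Dhx34 (-0.385 in the XX-type pair, -0.388 in the XY-type pair) and Dhx9 (0.265 and 0.281) the pairs were nearly equal. The CFLARs Tg arrays differed from each other more than the wild-type arrays did over all genes fitted, with an SD of 0.246 against 0.150 for the log2 differences. Among the members the median SD was 0.053 for CFLARs Tg and 0.032 for wild-type (n = 2).

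Markers of the labelled tissue were present: 11 of 12 genes of small intestinal epithelium passed the filter, and Vil1, a brush border actin-binding protein gene, had log2 means of 12.18 (wild-type) and 12.10 (CFLARs Tg). The summed linear signal of 17 markers of crypt and proliferating cells was 28508 to 29313 in wild-type and 33039 to 40344 in CFLARs Tg. In CFLARs Tg 17 of 17 lay higher (against 47.6% of all genes fitted) and 4 rose (against 8.44%). That count was 9 once sex type was blocked (limma), and the calls did not hold without either wild-type array. The median log2 difference of these 17 was 0.39 with all arrays. It was 0.58 and 0.21 without CFLARs Tg replicate 1 and 2. The summed linear signal of 12 neutrophil markers was 1794 to 1919 in wild-type and 3828 to 8146 in CFLARs Tg. Several passed the filter only through their CFLARs Tg values, and without a filter 6 of 12 rose. Macrophage markers summed to 5468 to 5475 and 6375 to 9049, with 0 of 9 called (limma, unadjusted p under 0.05 for 4). Of these 9, 1 rose after median centring and 4 rose once sex type was blocked. Their median log2 difference was 0.34 with all arrays, 0.53 without CFLARs Tg replicate 1 and 0.15 without CFLARs Tg replicate 2. Liver markers summed to 12535 in XX, 18361 in XY, 8605 in XCFX and 3508 in XCFY. The 7 exocrine pancreas markers summed to 2137, 10571, 1884 and 1131 in the same order, so the wild-type XY array stood apart. Of 7 fitted liver markers 2 fell, Abcb11 by -3.19 and Ttr by -0.84 (limma adjusted p = 0.0233 and 0.036), and 0 rose. Of 5 fitted pancreas markers 0 were called with all arrays (limma, unadjusted p under 0.05 for 1). Their median log2 difference was 0.115 for XCFX minus XX and -3.05 for XCFY minus XY. It was -2.76 without wild-type replicate 1 and -0.111 without wild-type replicate 2. Smooth muscle markers summed to 43245 to 43467 and 45224 to 50537, and lymphocyte markers to 1837 to 1887 and 2017 to 2330. Epithelial markers summed to 87211 to 87865 in wild-type, 85540 in XCFX and 67537 in XCFY. Their members were mixed, with 4 positive and 7 negative differences among the 11 fitted. Of these, 2 rose, Krt20 by 1.35 and Krt8 by 0.33 (limma adjusted p = 0.0202 and 0.038), and 0 fell. Once sex type was blocked, 2 rose and 1 fell. With the filter on, the calls of neutrophil, liver and epithelial markers did not hold when either wild-type array was left out. The part of these cell types in the helicase differences was not tested, and in whole tissue more cells of a type and more RNA per cell cannot be told apart.

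Nucleolar helicases of ribosome assembly, a role listed with earlier results of these data known, numbered 16. Of these, 6 rose and 0 fell, against 8.44% and 10.9% of all genes fitted. All 16 passed the filter. All 16 had a positive difference, against 47.6% of all genes fitted. In 15 both CFLARs Tg arrays lay above both wild-type arrays, against 32.0% of all genes fitted. The median log2 difference of the 16 was 0.24, from 0.01 for Ddx55 to 1.10 for Ddx21. XCFX minus XX gave a median of 0.18, and XCFY minus XY 0.33. The calls did not hold without either wild-type array (limma), and without a filter on low values 3 of the 16 rose.

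Ddx21, a nucleolar helicase that acts in transcription and processing of ribosomal RNA, read 9.73 and 9.88 on the wild-type arrays and 10.76 and 11.05 on the CFLARs Tg arrays (log2; XX and XY, then XCFX and XCFY, the order kept below). The groups were more than a full log2 unit apart at their means. The difference was 1.10 (SE 0.12, limma adjusted p = 0.0179), the largest of the 44. Its paralogue Ddx50, the adjacent helicase gene on chromosome 10 and also a nucleolar protein, read 9.29, 9.32, 9.38 and 9.42. Ddx50 lay slightly higher in both CFLARs Tg arrays, with a difference of 0.09 (SE 0.06, adjusted p = 0.280). Ddx21 gained 0.94 more than Ddx50 from XX to XCFX and 1.07 more from XY to XCFY. Whether the genes differed from each other in response was not tested.

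The bases before the start sites of these neighbours are shown because the genes lie side by side. The part of these bases in the values was not tested. The sequences are RefSeq's for mouse assembly GRCm38.p6, 250 bases upstream of the annotated start, written 5′ to 3′ on the gene's strand. Capitals mark matches to any of 5 motifs, searched on both strands: CACGTG, the E-box bound by Myc and related factors; CCGGAAG, an ETS-type site; AANNGAAA, part of the element bound by interferon-activated factors; TGACGTCA, the cAMP response element; and GCGCATGC, an NRF1-type site.
Ddx21 (chr10:62602299-62602548, minus strand): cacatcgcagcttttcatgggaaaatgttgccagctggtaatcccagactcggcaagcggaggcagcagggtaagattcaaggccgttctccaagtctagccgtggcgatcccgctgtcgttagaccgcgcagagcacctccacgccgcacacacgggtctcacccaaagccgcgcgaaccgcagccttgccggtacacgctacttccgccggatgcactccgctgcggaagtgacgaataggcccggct
Ddx50 (chr10:62651219-62651468, minus strand): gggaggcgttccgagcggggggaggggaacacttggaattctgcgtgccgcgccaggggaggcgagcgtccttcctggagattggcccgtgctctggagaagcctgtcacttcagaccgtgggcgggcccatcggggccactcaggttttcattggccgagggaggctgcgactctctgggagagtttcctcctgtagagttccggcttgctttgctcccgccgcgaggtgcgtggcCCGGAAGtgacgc
The Ddx21 window held none of the 5 motifs, and the Ddx50 window held the ETS-type letters 13 bases before the start. RefSeq gave a second start for Ddx50, whose window is not shown. That window held AANNGAAA 210 bases before its start.

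Over the family, the ETS-type letters were in a window of 16 of the 43 helicase genes for which RefSeq gave one (37.2%), against 7.83% of all genes and 6.91% of all 32851 windows. The E-box was in 6 of 43 (14.0%, against 6.86% of all genes and 6.02% of windows) and the NRF1-type letters in 5 (11.6%, against 2.56% and 2.26%). The cAMP response element was in 3 (6.98%, against 1.77% and 1.55%), and AANNGAAA, whose matches may overlap, in 9 (20.9%, against 23.9% and 21.3%). The helicase windows were richer in G and C than all windows, with medians of 60.2% and 52.4%, and the part of base composition in these shares was not tested. Of the 10 genes that rose, 9 had a window; 2 of these held AANNGAAA (Dhx29 and Ddx18), 1 the E-box, 1 the NRF1-type letters, 1 the ETS-type letters and 0 the cAMP response element. A match describes letters and is not a shown binding site.

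The other nucleolar helicases that rose act in assembly of the large ribosomal subunit, apart from Dhx33. Ddx18 read 9.89, 9.87, 10.26 and 10.52, up by 0.51 (SE 0.10, limma adjusted p = 0.0367). Its second probe set gave the same direction with a smaller difference of 0.25. Ddx31 read 8.19, 8.28, 8.61 and 8.82, a difference of 0.48 (SE 0.09, adjusted p = 0.0333). In both genes the CFLARs Tg arrays lay clear of the wild-type arrays, XCFY above XCFX.

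Ddx27 read 9.03, 8.95, 9.25 and 9.36, with a difference of 0.32 (SE 0.07, limma adjusted p = 0.0455). Ddx56 read 10.10, 10.07, 10.33 and 10.46, with a difference of 0.31 (SE 0.07, adjusted p = 0.0450). Once sex type was blocked, neither passed the test (adjusted p = 0.0552 and 0.0527), although the groups did not overlap. Dhx33, a DEAH helicase that promotes transcription of ribosomal RNA, read 9.43, 9.47, 9.70 and 9.87, a difference of 0.34 (SE 0.08, adjusted p = 0.0479). Its upstream window is shown because it alone held the E-box among the 9 genes that rose and had a window, 35 bases before the start, and it also held the NRF1-type letters, 114 bases before it.
Dhx33 (chr11:71004433-71004682, minus strand): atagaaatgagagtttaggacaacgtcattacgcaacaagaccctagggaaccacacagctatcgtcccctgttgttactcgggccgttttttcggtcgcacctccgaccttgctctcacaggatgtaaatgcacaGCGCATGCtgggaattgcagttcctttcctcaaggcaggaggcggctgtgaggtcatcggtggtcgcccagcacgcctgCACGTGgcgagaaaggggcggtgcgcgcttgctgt

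Of the 10 nucleolar helicases that did not pass the test, 9 had both CFLARs Tg arrays above both wild-type arrays. The share over all genes fitted, called or not, was 32.0%. Those of small-subunit pre-rRNA processing were Ddx47 at 0.26, Ddx10 at 0.25, Dhx37 at 0.21, Ddx52 at 0.14 and Ddx49 at 0.13 (log2 differences; limma adjusted p = 0.126, 0.134, 0.0629, 0.271 and 0.251). Ddx51, Ddx24 and Ddx54, of the large subunit, stood at 0.23, 0.17 and 0.16 (adjusted p = 0.065, 0.094 and 0.112). Ddx55, also of the large subunit, was the member whose arrays overlapped, at 8.63, 8.66, 8.70 and 8.62. Its difference was 0.01 (SE 0.06, adjusted p = 0.886).

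**Figure D2:**
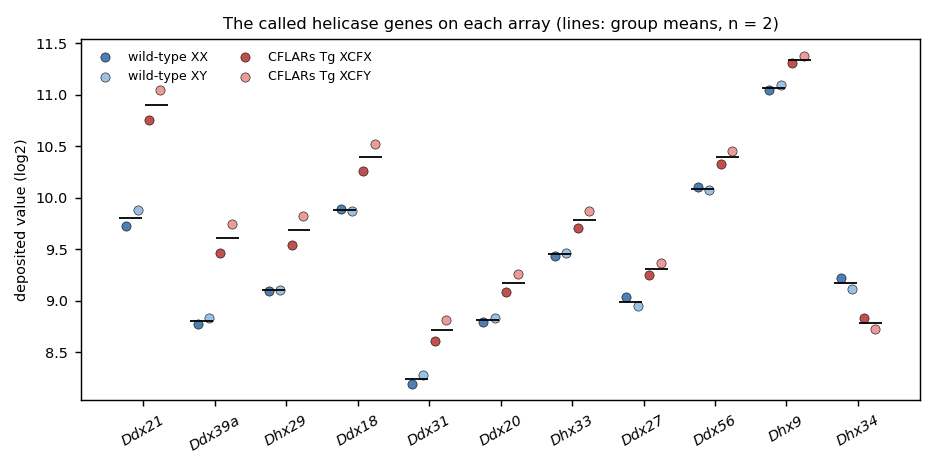
Deposited log2 values (vertical axis) of the 11 called helicase genes on the 4 arrays, with a line at each group's mean (n = 2). For the 10 genes that rose both CFLARs Tg points lie above both wild-type points, and for Dhx34 both lie below.

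Listed genes of the wider machinery of ribosome production mostly moved the same way. A list of 29 non-helicase genes of rRNA transcription and processing had 24 that rose (82.8%) and 0 that fell. Over all genes fitted 8.44% rose and 10.9% fell. The median log2 difference of the list was 0.62, against -0.01 over all genes fitted. This list was drawn up with earlier results of these data known. Its largest differences were Heatr1 at 0.90, Nop56 at 0.86 and Rrp12 at 0.80 (limma adjusted p = 0.0161, 0.0175 and 0.0168), which act in rRNA transcription, rRNA modification and ribosome maturation. Myc, a transcription factor that drives ribosome production, read 10.32, 10.18, 10.75 and 11.10, a difference of 0.68 (SE 0.13, adjusted p = 0.0357). The crypt and proliferation markers given above had medians of 0.24 (XCFX minus XX) and 0.53 (XCFY minus XY). Without either wild-type array none of the 104 fitted genes of the related lists was called (limma, lowest adjusted p 0.116 and 0.0841; unadjusted p under 0.05 for 37 and 42). With all arrays 37 rose and 1 fell, with a median of 0.17. Leaving out either CFLARs Tg array let more of them pass, in both directions, as it did over all genes fitted. Their median was 0.23 without CFLARs Tg replicate 1 and 0.13 without CFLARs Tg replicate 2. That of the rRNA list was 0.71 and 0.53.

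Splicing helicases were 10 in number, and 0 passed the test (limma, unadjusted p under 0.05 for 3). Their median log2 difference was 0.06, from -0.16 to 0.38. Dhx15, which releases the spent spliceosome and also serves ribosome assembly, read 10.85, 10.84, 11.10 and 11.35. Its groups did not overlap, with a difference of 0.38 (SE 0.10, limma adjusted p = 0.0585), and it passed once sex type was blocked (adjusted p of 0.0435) and without either CFLARs Tg array. Without CFLARs Tg replicate 1, 2 splicing helicases rose, Dhx15 and Ddx46. Ddx46, which acts with the U2 particle at the branch site, read 10.44, 10.51, 10.66 and 10.82, a difference of 0.26 (SE 0.08, adjusted p = 0.0834). Dhx35 lay lower in both CFLARs Tg arrays, at 9.58, 9.56, 9.40 and 9.43 (difference -0.16, SE 0.06, adjusted p = 0.112).

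The remaining splicing helicases differed little. Dhx38, Dhx8, Dhx16 and Ddx23, which drive single steps of the splicing cycle, had log2 differences of 0.14, 0.06, 0.05 and 0.04. Ddx41 stood at 0.04 and Ddx42 at -0.01, with arrays that overlapped. Ddx39b, which loads onto mRNA during splicing and export, stood at 0.14 (SE 0.06, limma adjusted p = 0.148). Of 21 core spliceosome genes 5 rose and 0 fell (against 8.44% and 10.9% of all genes fitted), with a median of 0.14. That median was 0.14 without CFLARs Tg replicate 1 as well, and 0.10 without CFLARs Tg replicate 2. The largest were Prpf4 at 0.52, Prpf31 at 0.49 and U2af1 at 0.46 (adjusted p = 0.0239, 0.0254 and 0.0306), of the tri-snRNP and of 3′ splice site recognition.

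G-patch proteins switch on DEAH helicases through a glycine-rich segment. Of 21, 3 rose and 0 fell (against 8.44% and 10.9% of all genes fitted), with a median of -0.02. That median was -0.05 without CFLARs Tg replicate 1 and -0.03 without CFLARs Tg replicate 2. The 3 were Pinx1 at 0.82, Nkrf at 0.53 and Gpatch4 at 0.37 (limma adjusted p = 0.0314, 0.0348 and 0.0245). Pinx1, a nucleolar partner of the telomerase enzyme, read 9.15, 9.09, 9.73 and 10.15. Nkrf, a nucleolar protein, read 9.03, 9.03, 9.43 and 9.70. Of all 21, 9 differences were positive and 12 negative.

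**Figure D3:**
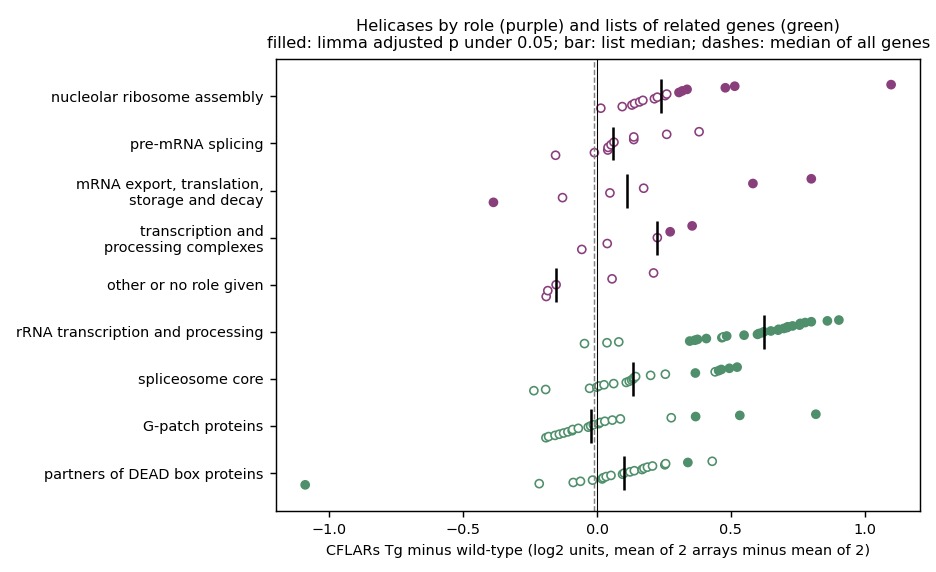
CFLARs Tg minus wild-type difference (log2 units, horizontal axis) of helicases by role (purple) and of lists of related genes (green), 1 point a gene, filled where limma's adjusted p was under 0.05, with a bar at each median. The nucleolar helicases all lie right of 0, with a median of 0.24, and the rRNA list lies farther right, at 0.62.

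Helicases of mRNA export, translation, storage and decay held both the second largest rise and the only fall. Of 6 fitted, 2 rose and 1 fell (against 8.44% and 10.9% of all genes fitted), with a median log2 difference of 0.11. Ddx39a, which exports mRNA from the nucleus, read 8.78, 8.83, 9.46 and 9.75. The CFLARs Tg mean was 1.74-fold higher, or 0.80 log2 units (SE 0.11, limma adjusted p = 0.0214). Its close relative Ddx39b, with the same task, read 11.80, 11.76, 11.91 and 11.93, and Ddx39a gained 0.59 more from XX to XCFX and 0.74 more from XY to XCFY. Whether these relatives differed in response was not tested. Alyref, an export adaptor that binds both, read 11.47, 11.51, 11.78 and 12.06, a difference of 0.43 that did not pass (SE 0.11, adjusted p = 0.0572).

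Dhx29, which helps ribosomes scan structured mRNA leaders, read 9.09, 9.11, 9.54 and 9.83. It rose by 0.58 (SE 0.11, limma adjusted p = 0.0328). Dhx57, a relative with no role assigned here, lay the other way at 10.27, 10.15, 10.04 and 9.999 (difference -0.18, SE 0.07, adjusted p = 0.121). Dhx34, a factor of nonsense-mediated mRNA decay, was the only helicase gene that fell. It read 9.22, 9.12, 8.84 and 8.73, which is 1.31-fold lower (difference -0.39, SE 0.07, adjusted p = 0.0332). The fall was of like size in both pairs, -0.39 (XCFX minus XX) and -0.39 (XCFY minus XY).

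Other helicases of this group lay closer to no difference. Ddx6, of mRNA decay and storage granules, read 12.22, 12.30, 12.28 and 12.34, and its groups overlapped. Ddx19b, which acts at the nuclear pore, stood at 0.17 (SE 0.06, limma adjusted p = 0.0901); its near-identical relative Ddx19a had no probe set of its own, so the signal may hold both. Dhx36, which unwinds G-quadruplexes, read 9.99, 9.91, 9.80 and 9.84 (difference -0.13, SE 0.06, adjusted p = 0.196).

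The eIF4A proteins are DEAD box helicases under another symbol. Eif4a3, the core of the exon junction complex, read 9.14, 9.33, 9.84 and 9.88 and rose by 0.62 (SE 0.09, limma adjusted p = 0.0219). Eif4a1, the helicase of translation initiation, read 13.10, 13.28, 13.46 and 13.62, a difference of 0.35 that did not pass (SE 0.09, adjusted p = 0.0642). Eif4a2 read 11.93, 11.83, 11.85 and 11.70 (difference -0.11, SE 0.08, adjusted p = 0.385), with overlapping groups. Once sex type was blocked, 2 of the 3 rose.

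Binding partners of DEAD box proteins gave 1 gene higher and 1 lower of 21, against 8.44% and 10.9% of all genes fitted. The median of the 21 was 0.10. That median was 0.15 without CFLARs Tg replicate 1 and 0.06 without CFLARs Tg replicate 2. The gene that fell was Pdcd4, an inhibitor that holds eIF4A away from mRNA. It read 11.84, 11.65, 10.57 and 10.74, a difference of -1.09 (SE 0.10, limma adjusted p = 0.0161), close in size to the rise of Ddx21. The gene that rose was Rbm8a, a partner of Eif4a3 in the exon junction complex, at 0.34 (SE 0.07, adjusted p = 0.0366).

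**Figure D4:**
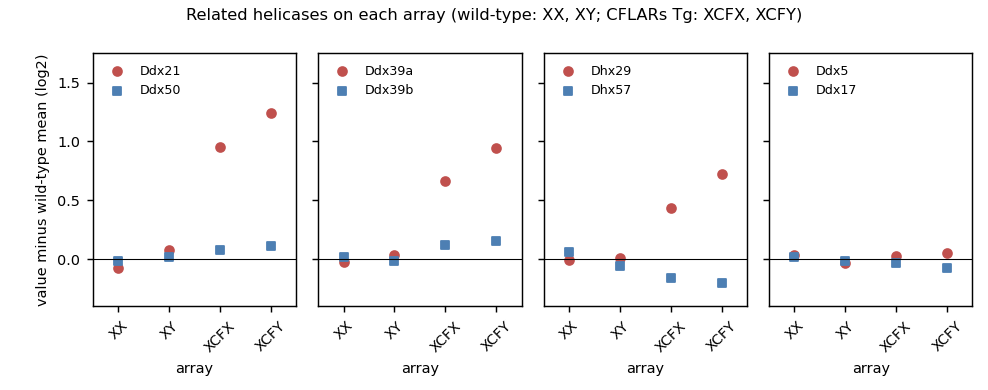
Values of 4 pairs of related helicases on each array, as log2 units from each gene's wild-type mean (vertical axis). Ddx21, Ddx39a and Dhx29 part from Ddx50, Ddx39b and Dhx57 on both CFLARs Tg arrays, while Ddx5 and Ddx17 stay within 0.1 of 0.

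Of the 5 helicases of transcription and RNA processing complexes, 2 rose and 0 fell, against 8.44% and 10.9% of all genes fitted. The median of the 5 was 0.23. Without a filter on low values 0 rose (Ddx20 and Dhx9 at adjusted p = 0.0544 and 0.0565 by limma). Ddx20, of the SMN complex that builds spliceosomal particles, read 8.80, 8.83, 9.08 and 9.26 (difference 0.36, SE 0.08, limma adjusted p = 0.0458). Dhx9, RNA helicase A, read 11.04, 11.10, 11.31 and 11.38, and had the lowest standard error of the genes that rose (difference 0.27, SE 0.06, adjusted p = 0.0455). Dhx9 did not pass once sex type was blocked (adjusted p = 0.0551). Ddx1, of the tRNA ligase complex, read 11.48, 11.53, 11.61 and 11.86 (difference 0.23, SE 0.10, adjusted p = 0.169). The coregulators Ddx5 and Ddx17 hardly differed, at 0.04 and -0.06 (adjusted p = 0.668 and 0.509).

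Among RNA helicases of other families, 3 of 10 rose and 0 fell, against 8.44% and 10.9% of all genes fitted. The median of the 10 was 0.17. That median was 0.16 without CFLARs Tg replicate 1 and 0.17 without CFLARs Tg replicate 2. Supv3l1, of the mitochondrial degradosome, read 9.31, 9.29, 9.64 and 9.79, a difference of 0.41 (SE 0.07, limma adjusted p = 0.0305). Mtrex, the helicase of the nuclear exosome, stood at 0.35 (SE 0.09, adjusted p = 0.0545). Mov10, a partner of small RNA pathways, read 12.24, 12.33, 12.02 and 11.49, a difference of -0.53 that did not pass (SE 0.18, adjusted p = 0.107). The other genes called, chosen for naming after their values were seen, were Ythdc2 and Upf1 (limma adjusted p = 0.0328 and 0.049). Upf1 did not pass after quantile normalization or median centring, without a filter on low values, or once sex type was blocked. Without a filter 2 genes of the list rose. In the other settings of these the count stayed at 3, so another gene passed there.

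Ddx60, an interferon-induced antiviral helicase, was the member whose CFLARs Tg arrays disagreed most. It read 9.46, 9.86, 9.94 and 8.81, so XCFX lay above both wild-type arrays and XCFY below both. XCFX minus XX was 0.48 and XCFY minus XY was -1.06, and the mean difference of -0.29 did not pass (SE 0.40, limma adjusted p = 0.638). Without CFLARs Tg replicate 1 it was -0.85, which passed (adjusted p of 0.00973), and leaving out CFLARs Tg replicate 2 made it 0.28 and did not (adjusted p = 0.240).

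A list of 18 other interferon-stimulated genes, drawn up with earlier results known, gave 0 calls (limma, unadjusted p under 0.05 for 1). Their median log2 difference was 0.08 with all arrays, -0.24 without CFLARs Tg replicate 1 and 0.25 without CFLARs Tg replicate 2. All 18 lay higher in XCFX than in XCFY, and all 18 higher in XY than in XX. In XCFX 14 lay above both wild-type arrays, and in XCFY 10 lay below both. Their summed linear signal was 20941 in XX, 26195 in XY, 29843 in XCFX and 18104 in XCFY, the same order of arrays as Ddx60. The RNA of liver and pancreas markers was also lowest in XCFY, and the part of these differences in Ddx60 was not tested.

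The bases before the start of Ddx60 are shown because it is the member with the most copies of AANNGAAA, here at 57, 51, 23 and 17 bases before the start, in capitals.
Ddx60 (chr8:61927837-61928086, plus strand): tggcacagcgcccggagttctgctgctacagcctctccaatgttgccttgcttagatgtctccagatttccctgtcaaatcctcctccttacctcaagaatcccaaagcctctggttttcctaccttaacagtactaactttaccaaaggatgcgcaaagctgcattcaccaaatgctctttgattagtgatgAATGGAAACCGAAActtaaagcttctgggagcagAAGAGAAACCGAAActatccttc

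**Figure D5:**
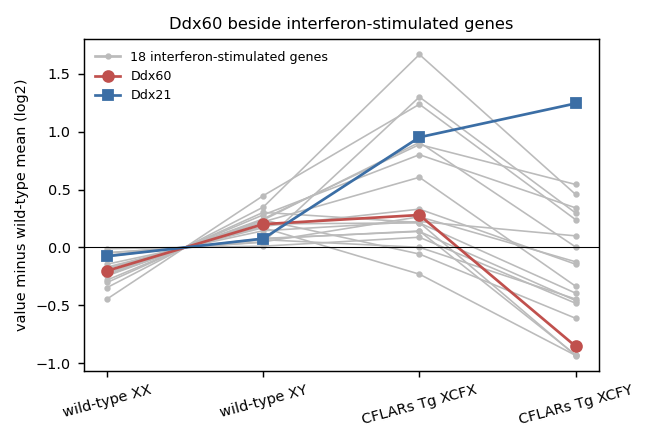
Values of Ddx60, Ddx21 and 18 interferon-stimulated genes on each array, as log2 units from each gene's wild-type mean (vertical axis); lines join the points of a gene and do not mark an order of arrays. Ddx60 falls from XCFX to XCFY with all 18 grey lines, while Ddx21 is higher in XCFY.

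Helicases with no role assigned here were 5, and 0 were called (limma, unadjusted p under 0.05 for 3), with a median of -0.15. Dhx40 read 8.94, 8.88, 8.67 and 8.77 (difference -0.19, SE 0.07, limma adjusted p = 0.109). Ddx59 read 8.82, 8.56, 8.58 and 8.50 (difference -0.15, SE 0.10, adjusted p = 0.335), with overlapping groups. Ddx11, a DNA helicase of sister chromatid cohesion, went the other way at 8.90, 8.90, 9.05 and 9.18 (difference 0.21, SE 0.07, adjusted p = 0.0915). Dhx32 stood at 0.06. Ddx11 rose without CFLARs Tg replicate 1, and Dhx40 fell without CFLARs Tg replicate 2.

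The 4 helicases below the filter were Ddx4, Ddx25 and Ddx43, of germ cells, and Ddx28, of the mitochondrial ribosome. Ddx4, the Vasa protein gene, read 5.86, 5.98, 5.92 and 5.73. Ddx25 and Ddx43 had 4-array means of 6.73 and 6.43. For scale, Y-linked genes and Xist read 5.13 to 6.78 on the arrays of the sex type that lacks them, so these 3 were within the range of probe sets with no expected target. Of 7 germ cell markers 2 passed the filter, and both fell. Sycp3 fell by -1.28 and Piwil2 by -0.43 (limma adjusted p = 0.0052 and 0.0239). They passed the filter through their wild-type values, as their CFLARs Tg means were 7.04 and 7.36. Without a filter 2 of the 7 fell as well. Ddx28 had a mean of 7.23, the value just outside the filter, and Ddx31, at 8.48, was the lowest inside it. Dhx30, the other mitochondrial ribosome helicase, stood at 0.03 (SE 0.06, limma adjusted p = 0.701).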

How the data were processed

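Total RNA of whole small intestine was measured on 4 arrays, 2 of wild-type and 2 of CFLARs Tg mice. The authors deposited 1 value table of log2 values, which ran from 4.33 to 14.55 with array medians of 8.31 to 8.33; that the scale is log2 was read from the values. Background correction, normalization and summarisation are not given in the sources used here. Of 28856 probe sets, 21789 carried a single symbol in the platform annotation, 1621 several and 5446 none; the probe set with the highest mean stood for each of 19938 genes. The 30% of genes with the lowest mean were left out, and 13956 were fitted with limma 3.58.1 (R 4.3.3; lmFit, eBayes, Benjamini-Hochberg over all fitted genes, threshold 0.05), leaving 2 degrees of freedom for the residuals (prior 2.64). The script was tested on simulated data. The number of arrays limits the precision. The members, roles and lists were chosen with earlier results of these data known. Values on every array were to be given for the 10 largest differences in each direction and the 2 largest in each role, and 3 genes were to be named from each related list. Promoter windows came from RefSeq tables for GRCm38.p6. Summed marker signals are sums of 2 to the power of the log2 values over all listed genes on the array.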

Additional observations from a re-analysis of the deposited data

Results flagged for a closer look

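In 5 helicase genes the XX-type pair and the XY-type pair of arrays differed in opposite directions between CFLARs Tg and wild-type. The difference between pairs was not tested, since each pair has 1 array a side. It was largest for Ddx60, at -1.54 log2 units (-1.538; XY-type difference minus XX-type difference). In the others it was of the size of the spread between arrays: 0.083 for Ddx41, 0.087 for Ddx5, -0.109 for Ddx55 and 0.056 for Ddx42.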

How the results depend on the processing

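Leaving out 1 array in turn gave 0 to 21 helicase genes higher and 0 to 2 lower; the calls were 0 (limma, unadjusted p under 0.05 for 7 and 8) without wild-type replicate 1 and 2. Without a filter on low values 5 were higher. Against a minimum log2 difference of 0.5, 0 were higher and 0 lower (limma's treat, unadjusted p under 0.05 for 2). Leaving out the lowest 50% of genes gave 9 higher, since Ddx31 was no longer fitted, and 1 lower. Quantile normalization, median centring and the median of a gene's probe sets each gave 10 higher and 1 lower, and all 11 calls remained. With sex type as a block 8 were higher and 1 lower; Ddx27, Ddx56 and Dhx9 were lost and Dhx15 was gained. The titles give no replicate numbers shared by the genotypes, and sex type was the block fitted.

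Some uncalled differences turned sign: Ddx42 was 0.002 after quantile normalization and -0.035 to 0.016 with 1 array left out. Ddx60 was -0.854 to 0.280 with 1 array left out. The cause of these changes was not tested. With 2 arrays a group the fit has few degrees of freedom, and a lone array is assumed to vary like the other group.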
